A study of Sus scrofa with 4 samples.

Results

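Chromatin-modifying enzymes were taken as all array probes whose platform gene symbol names a DNA methyltransferase (DNMT), a TET dioxygenase, a histone deacetylase (HDAC), a sirtuin, a lysine demethylase (KDM), a lysine acetyltransferase (KAT), a methyltransferase of the KMT, SETD, PRMT or EZH series, EED, SUZ12, or a remodeller of the SMARC or CHD series. This rule found 155 probes of 71 genes, among 43794 probes, of which 18121 carry a symbol for 11938 genes. No probe carried a KMT symbol, and DNMT3A, EZH2, KDM6B and PRMT5 had no probe named here. The embryos were pig (Sus scrofa) blastocysts. Each of 4 two-colour arrays set a pool grown from cumulus-oocyte complexes that had matured beside porcine luteal cells (coculture) against a pool whose complexes had matured without such cells (control). The labels give pools of 10 blastocysts from days 7 and 8, without saying which pool came from which day, and they give no breed, genotype or age of the sows. Coculture RNA carried the dye Cy5 on replicates 1 and 2 and Cy3 on replicates 3 and 4. The labels call the arrays biological replicates, and the series speaks of 4 pools without saying whether per condition or in all. If in all, some arrays would share a pool, and the p-values and intervals below would be too small. Because the labels tie no pool to an animal or a culture batch, p-values measure only the spread between these arrays. The fit has a dye term, so this is the spread between arrays of the same dye orientation. A disagreement between the orientations does not widen the intervals. The orientations were run on different replicates, so a split by dye and a split between replicates cannot be told apart.

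Chromatin-modifying enzymes add or remove chemical marks on DNA and histones, or move nucleosomes. DNMT enzymes methylate cytosine and TET enzymes oxidise the methyl group, lysine and arginine methyltransferases and lysine demethylases set and erase histone methylation, acetyltransferases and deacetylases do the same for acetylation, and SMARC and CHD proteins belong to ATP-driven remodelling complexes. In mammals the early embryo loses much of the gametes' DNA methylation up to the blastocyst stage and lays down new patterns afterwards, while histone marks diverge between the inner cell mass and the trophectoderm. The comparison asks whether blastocyst transcripts differ when the oocyte had matured next to luteal cells.

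The detection limit of a channel was set from its 153 negative-control spots, at 2 SD over their mean, and a probe with a median pixel intensity above it was counted as detected. Of the 155 probes, 34 were above it in both channels of all 4 arrays (21.9%, beside 16.4% of all probes on the array), 62 in some channels and 59 in none. No member probe was saturated. On each array more member probes passed in the Cy3 channel than in Cy5, whichever condition it held. With coculture in Cy5, 37.4% (replicate 1) and 32.9% (replicate 2) of the members passed in coculture, against 45.2% and 46.5% in control. With coculture in Cy3, 45.2% (replicate 3) and 43.2% (replicate 4) passed in coculture, against 28.4% and 32.9% in control. Over all probes the shares ran from 23.5% to 34.8%. Detection therefore followed the dye, and it is not read as a difference between conditions. Markers fixed for the tissue were present: 6 of the 8 trophectoderm genes with a probe were above the limit in every channel, among them GATA3 and KRT8, while of 9 granulosa, cumulus and luteal genes with a probe none was. The median ratio of the 7 trophectoderm genes tested was -0.19 and that of 4 granulosa, cumulus and luteal genes 0.15, and POU5F1, a gene of the inner cell mass, stood at -0.38. The 2 tested genes of the primitive endoderm, APOA1 and GATA6, lay on opposite sides of 0, with a median of -0.37. Their medians on replicates 1 to 4 were -0.76, -1.37, 0.17 and 0.47, split by dye orientation. Of the other somatic lists, TAGLN of 5 fibroblast genes with a probe and AIF1 of 5 leukocyte genes were above the limit in every channel, and none of 4 endothelial genes was. The 3 fibroblast genes tested had a median of 0.059, 2 of them at an unadjusted p under 0.05. The trophectoderm, inner cell mass and primitive endoderm lists had 1 such gene each. The 2 leukocyte genes had a median of 0.25, with -0.20, 0.026, 0.55 and 0.61 on replicates 1 to 4. No marker passed the adjusted test below, and their part in the results was not tested.

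**Figure D1:**
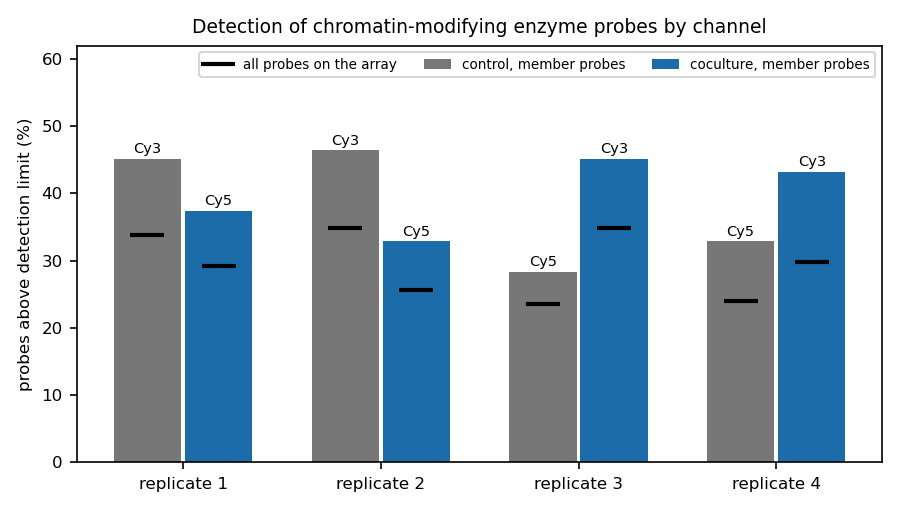
Share of the 155 probes of chromatin-modifying enzymes above the detection limit (y axis, percent), for the control and coculture channel of each array (bars, with the dye above each), with a black dash for all probes of the array. The Cy3 bar is the higher on each of the 4 arrays, from 43.2% to 46.5% against 28.4% to 37.4% in Cy5.

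The ratios below are log2 ratios of coculture over control; a value of 1 is a doubling. A probe was tested where coculture, control or both were above the limit on 2 or more arrays. That held for 77 of the 155 probes, covering 45 of the 71 genes. The 26 genes left untested for low signal include DNMT3B, TET3, EZH1, SUZ12, HDAC3 and KAT2A. TET3, EZH1, KAT2A and all 3 probes of SUZ12 were above the limit in no channel, HDAC3 on 1 array in each condition, and the 3 probes of DNMT3B in 2 coculture channels and no control channel between them. No statement about a change in these genes can be drawn from the arrays. In pools of whole blastocysts, fewer cells of a type and less RNA per cell cannot be told apart.

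None of the 77 probes differed between coculture and control in the fit over all probes (limma, Benjamini-Hochberg adjusted p under 0.05). Of all 15631 probes tested, 0.0% did. The smallest adjusted p of a member was 0.629. At an unadjusted p under 0.05 there were 8 member probes, of 8 genes: 6 higher in coculture (KAT5, PRMT7, SIRT1, SMARCB1, SMARCE1 and TET2) and 2 lower (KAT2B and KDM1A). That is 10.4% of the members tested, beside 7.86% of all probes tested, of which 4.16% were higher and 3.7% lower. The members' share is close to that background, and all 8 had a limma adjusted p between 0.629 and 0.634. Without replicate 1, 2, 3 or 4 the members at an unadjusted p under 0.05 numbered 2, 3, 4 and 10. These are 2.6%, 3.9%, 5.2% and 13.0% of members, beside 6.2%, 3.9%, 8.0% and 9.7% of all probes tested. With mean in place of median pixel intensities there was 1 (1.3%, beside 7.4%). With median centring in place of loess, 1 member was higher and 2 were lower at an unadjusted p under 0.05, and the share of higher probes among all those below that p was 28.3%, against 52.9%. Member ratios had a median of -0.011, with 38 above and 39 below 0, and a middle range from -0.12 to 0.13. All probes tested had a median of 0.0018 and a middle range from -0.13 to 0.14.

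The members' medians on replicates 1 to 4 were -0.019, -0.034, -0.016 and -0.043. Ratios kept 1 sign on all 4 arrays for 7 member probes, 2 above and 5 below 0 (9.09%, beside 13.2% of all probes tested). The means of the dye orientations had opposite signs for 45 members (58.4%, beside 54.7%). Across the 77 probes, Pearson's r between arrays of the same dye orientation was 0.173 for replicates 1 and 2 and 0.361 for replicates 3 and 4; between arrays of opposite orientation it ran from -0.171 to 0.0328. Over all probes tested, r was 0.204 and 0.167 within orientations and ran from -0.191 to -0.0273 between them. These are descriptions across probes, which share arrays, dyes and background. The 95% interval of a member's ratio reached 0.361 to either side at the median, from 0.324 to 0.654, and for 75 of the 77 probes the whole interval lay between -1 and 1, that is, within a doubling and a halving. The 2 others were TET2 and SMARCE1.

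**Figure D2:**
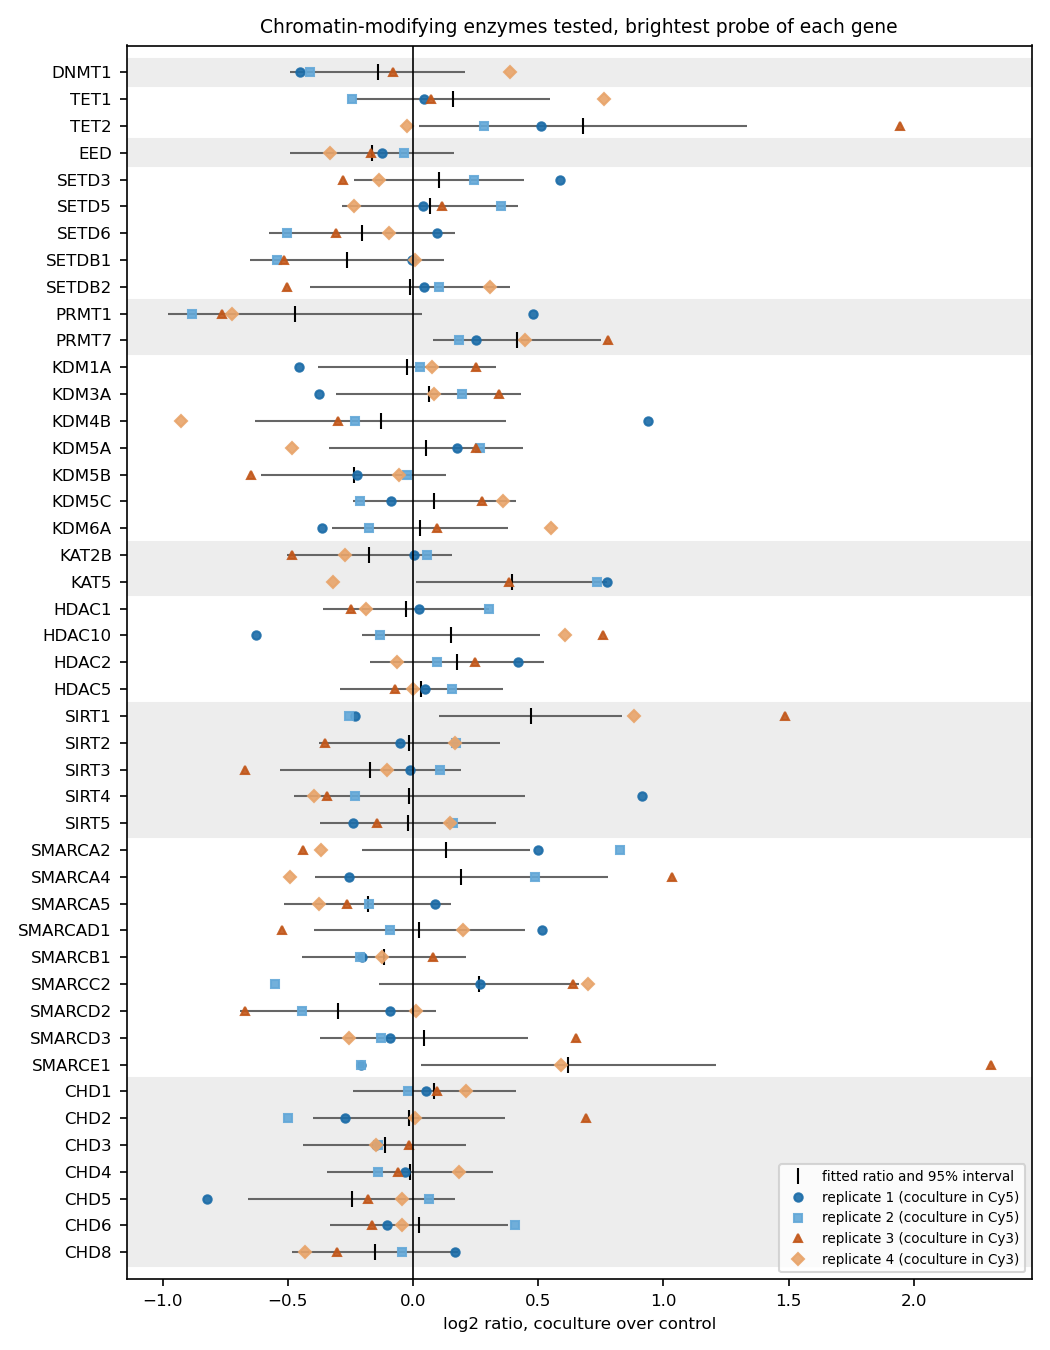
Log2 ratio of coculture over control (x axis) of the brightest tested probe of each of the 45 genes, in shaded blocks by enzyme class, with the value of each array (coloured symbols) and the fitted ratio with its 95% interval (black tick and line). Most arrays lie within 0.5 of 0, and TET2, SIRT1 and SMARCE1 have their highest value on replicate 3.

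Of the enzymes of DNA methylation, DNMT1, TET1 and TET2 were tested and none passed. DNMT1, the methyltransferase that copies methylation onto the new strand after replication, gave normalized signals of 960, 679, 808 and 688 in coculture and 1314, 903, 854 and 526 in control on replicates 1 to 4. Coculture was the lower on 3 of 4 arrays, and the groups overlapped. Its ratio was -0.14 (95% interval -0.49 to 0.21), and its other tested probe stood at -0.37 (-0.82 to 0.09). TET1, which starts the oxidation of methylcytosine, gave 2673, 2529, 2311 and 2579 in coculture and 2595, 2992, 2201 and 1518 in control, with a ratio of 0.16 (-0.23 to 0.55). The coculture signals lay close together, inside the range of the control, whose lowest pool was that of replicate 4.

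TET2, an enzyme of the same reaction that lacks the DNA-binding domain of TET1, gave 310, 289, 1253 and 357 in coculture and 218, 237, 326 and 363 in control. Coculture was the higher on replicates 1 to 3, and replicate 3 stood far above every other pool. The probe was above the limit on 2 coculture arrays and on no control array. It was thus tested only through coculture, where it was the higher, and its p-value and interval are not support for a difference. With control raised to the lowest detected signal, its mean signal was 1.52-fold higher in coculture. This bound holds for the main processing only and leaves out the spread between arrays. The limma adjusted p was 0.634. The fitted ratio was 0.68 (95% interval 0.03 to 1.33), 0.19 without replicate 3 and 1.17 without replicate 4 (limma adjusted p = 0.095). With no background correction, and in the authors' deposited table, the ratio was 0.46. The other TET2 probe was above the limit in no channel, and its ratios were -0.29, 0.14, -0.43 and -0.042.

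The writers of histone methylation did not pass either. Of the Polycomb repressive complex 2, which methylates histone H3, 1 probe of EED was tested. EED, the subunit that binds the finished mark, gave 1258, 782, 1438 and 1267 in coculture and 1371, 801, 1616 and 1596 in control. Coculture was the lower on all 4 arrays, by little on each, and the groups overlapped, with a ratio of -0.16 (95% interval -0.49 to 0.16). The other EED probe was above the limit in no channel.

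Among SETD genes, 7 probes of 5 genes were tested, 3 above and 4 below 0 with a median of -0.011. SETDB1, which methylates histone H3 and silences retroelements, gave 5223, 4827, 6058 and 4687 in coculture and 5235, 7042, 8663 and 4654 in control. Replicates 2 and 3 were lower in coculture and replicates 1 and 4 level, with ratios of -0.0034, -0.55, -0.52 and 0.010 and a fitted ratio of -0.26 (-0.65 to 0.13). SETD5 stood at 0.07 (-0.28 to 0.42) by its brightest probe and at 0.25 (-0.14 to 0.65) by the other.

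Protein arginine methyltransferases were represented by 4 probes of PRMT1 and 3 of PRMT7, all above the limit in every channel. PRMT7, which places single methyl groups on arginine, gave 8601, 4825, 7106 and 10790 in coculture and 7224, 4253, 4146 and 7902 in control by its brightest probe. Coculture was the higher within each array, while the groups overlapped because the arrays differed in level. The ratio was 0.42 (95% interval 0.08 to 0.75; limma unadjusted p = 0.0216, adjusted p = 0.629), and 0.14 with mean in place of median pixel intensities. The other PRMT7 probes stood at 0.13 (-0.21 to 0.47) and 0.02 (-0.39 to 0.43).

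PRMT1, the main enzyme of asymmetric arginine dimethylation, gave 1851, 1295, 1192 and 1246 in coculture and 1327, 2389, 2021 and 2054 in control by its brightest probe. Coculture was the lower on replicates 2 to 4, with ratios of -0.88, -0.76 and -0.72, and the higher on replicate 1, at 0.48. The fitted ratio was -0.47 (-0.98 to 0.04), or -0.81 without replicate 1 and -0.13 without replicate 2. The other 3 probes stood at -0.11, -0.092 and -0.091, and the intervals of all 4 overlapped.

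The lysine demethylases, which remove histone methyl groups, had 11 tested probes of 7 genes, 6 above and 5 below 0 with a median of 0.028. The 3 tested probes of KDM1A, a demethylase of histone H3 and of other proteins, lay on both sides of 0. At -0.47 (95% interval -0.83 to -0.12; limma unadjusted p = 0.0149, adjusted p = 0.629), 1 of them gave 361, 406, 243 and 382 in coculture and 451, 400, 480 and 585 in control. Replicates 1, 3 and 4 were lower in coculture, replicate 2 was level, and the groups overlapped at the value of replicate 2. That probe was above the limit on no coculture array and on 2 control arrays. It was tested only through control, where it was the higher, so its p-value and interval are not support for a difference. Its ratio was -0.23 with no background correction and -0.086 from mean pixel intensities. The brightest KDM1A probe stood at -0.02 (-0.38 to 0.33) and the remaining one at 0.16 (-0.17 to 0.49).

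KDM5B, which removes a mark of active promoters, gave ratios of -0.22, -0.022, -0.65 and -0.056 on replicates 1 to 4. All 4 were below 0, 2 of them by little, with a fitted ratio of -0.24 (-0.61 to 0.13). KDM6A, the X-linked demethylase of the Polycomb mark, had ratios of -0.36, -0.18, 0.098 and 0.55 in order of replicate, below 0 with coculture in Cy5 and above 0 with coculture in Cy3. The fitted ratio was 0.03 (-0.32 to 0.38).

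Of the lysine acetyltransferases, KAT5 and KAT2B were tested. KAT5, the catalytic subunit of the NuA4 complex that acetylates histones H4 and H2A, gave 13250, 14420, 10510 and 5497 in coculture and 7740, 8657, 8053 and 6863 in control. Coculture lay above every control pool on replicates 1 to 3 and below every one on replicate 4. The ratio was 0.39 (95% interval 0.01 to 0.77; limma unadjusted p = 0.0444, adjusted p = 0.634), or 0.22 without replicate 3 and 0.57 without replicate 4. KAT5 had a limma unadjusted p of 0.0895 with no dye term. KAT2B, a subunit of the SAGA and related complexes, gave 492, 319, 445 and 254 in coculture and 561, 397, 629 and 548 in control by its dimmer tested probe. Coculture was the lower on all 4 arrays, most on replicate 4, and the groups overlapped. Its ratio was -0.53 (-0.90 to -0.16; limma unadjusted p = 0.0109, adjusted p = 0.629), but -0.29 with no background correction and -0.072 from mean pixel intensities. The brightest KAT2B probe, above the limit in every channel, stood at -0.17 (-0.50 to 0.15).

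The zinc-dependent deacetylases had 9 tested probes of 4 genes, with a median of 0.033 and none at an unadjusted p under 0.05. HDAC1 and HDAC2, the paired catalytic subunits of the SIN3, NuRD and CoREST corepressors, stood at -0.03 (95% interval -0.36 to 0.31) and 0.18 (-0.17 to 0.52). The array values of HDAC1 were 0.026, 0.30, -0.25 and -0.19, and those of HDAC2 were 0.42, 0.096, 0.25 and -0.064. HDAC10, which removes acetyl groups from polyamines, had all 6 of its probes tested, between -0.25 and 0.15. Its brightest probe had array values of -0.63, -0.13, 0.76 and 0.61, again split by dye orientation.

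The sirtuins, deacylases that consume NAD, had 10 tested probes of 5 genes, 3 above and 7 below 0 with a median of -0.017. SIRT1, the nuclear member that acts on histones and transcription factors, gave 1164, 1541, 5130 and 3581 in coculture and 1364, 1839, 1834 and 1940 in control. The control pools lay close together, while coculture was slightly lower on replicates 1 and 2 and far higher on replicates 3 and 4, the arrays with coculture in Cy3. The ratio of 0.47 (95% interval 0.10 to 0.84) thus averaged -0.24 in one orientation and 1.18 in the other (limma adjusted p = 0.629). That split is not part of the interval. The limma unadjusted p was 0.0179, and 0.134 with no dye term. The other SIRT1 probe was above the limit in no channel and gave -0.12, -0.37, 0.61 and -0.078. SIRT2, mainly a cytoplasmic tubulin deacetylase, stood at -0.02 (-0.38 to 0.35) and 0.20 (-0.19 to 0.59) by its 2 probes.

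**Figure D3:**
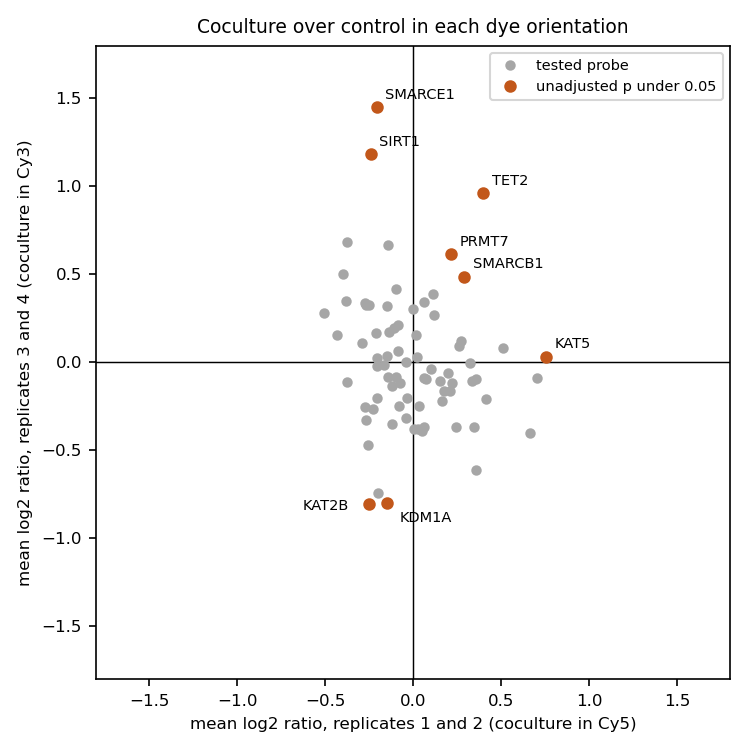
Mean log2 ratio of coculture over control on replicates 1 and 2 (x axis, coculture in Cy5) and on replicates 3 and 4 (y axis, coculture in Cy3) of the 77 tested probes, with the 8 probes at an unadjusted p under 0.05 named. SIRT1 and SMARCE1 lie left of 0 and far above it, KAT5 lies near 0 on the y axis, and 45 probes have means of opposite sign.

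The SMARC genes, most of which encode subunits of the BAF remodelling complexes, had 14 tested probes of 9 genes, 10 above and 4 below 0 with a median of 0.16. By the brightest probe of each gene, 6 of 9 lay above 0 and the median was 0.043. The ATPase genes SMARCA2 and SMARCA4, 1 of which drives each BAF complex, stood at 0.13 (95% interval -0.20 to 0.47) and 0.19 (-0.39 to 0.78). SMARCA2 had array values of 0.50, 0.83, -0.44 and -0.37, with the sign split by dye orientation. SMARCA4 gave -0.26, 0.49, 1.03 and -0.49, and its ratio turned to -0.19 without replicate 3.

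SMARCE1, a DNA-binding BAF subunit, gave 610, 454, 4358 and 1293 in coculture and 705, 525, 880 and 859 in control by its brightest probe. Replicate 3 lay far above every other pool, replicate 4 above every control pool, and replicates 1 and 2 slightly below their own controls. The ratio was 0.62 (95% interval 0.03 to 1.21; limma unadjusted p = 0.0415, adjusted p = 0.634), 0.19 without replicate 3 and 1.05 without replicate 4 (limma adjusted p = 0.097). With no dye term the limma unadjusted p was 0.127. The other tested probe stood at 0.30 (-0.05 to 0.66) and had its higher array values in the other orientation: 0.93, 0.47, -0.19 and 0.0086.

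SMARCB1, a core subunit shared by BAF complexes, had 3 tested probes that disagreed in sign. The dimmest gave 492, 500, 567 and 448 in coculture and 412, 400, 390 and 332 in control, so that the groups did not overlap. Its ratios of 0.26, 0.32, 0.54 and 0.43 averaged 0.39 (95% interval 0.06 to 0.71; limma unadjusted p = 0.0247, adjusted p = 0.629). It was above the limit on 2 coculture arrays and no control array, so it was tested only through coculture, where it was the higher. Its p-value, interval and lack of overlap are thus not support for a difference. With control raised to the lowest detected signal, the mean signal of this probe was 1.30-fold higher in coculture. That bound holds for the main processing only and leaves out the spread between arrays. With mean pixel intensities the ratio of this probe was -0.016, and without background correction 0.20. The brightest SMARCB1 probe, above the limit in every channel, stood at -0.12 (-0.44 to 0.21) and the third at -0.19 (-0.65 to 0.28).

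**Figure D4:**
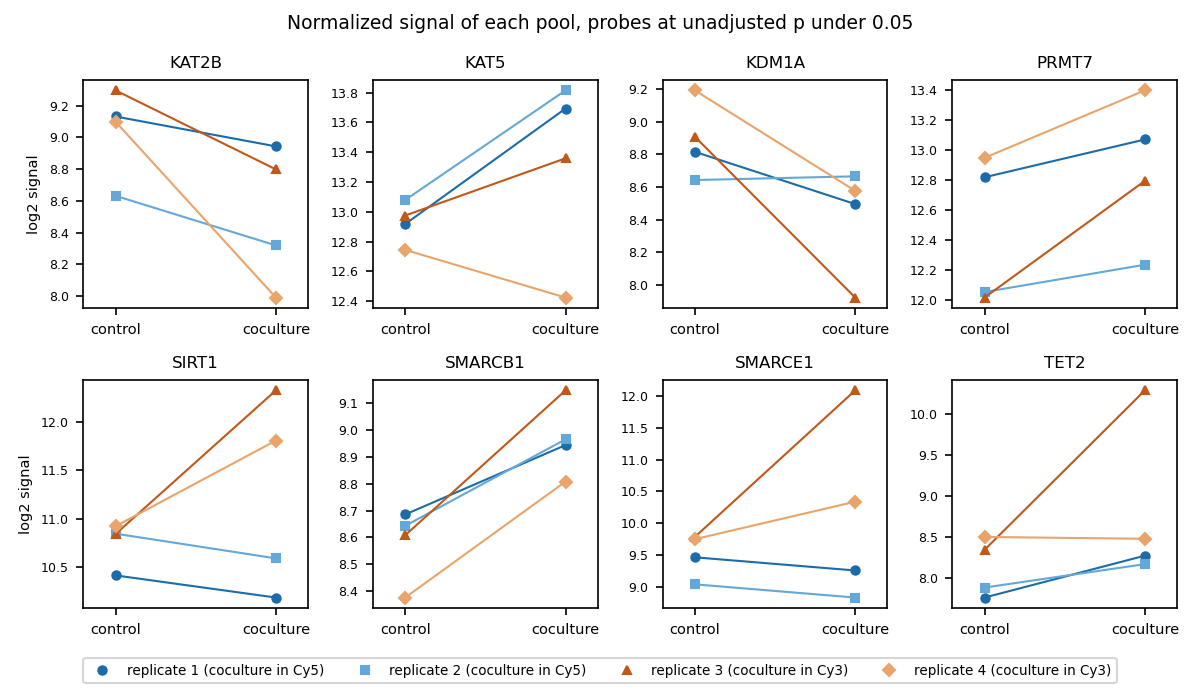
Log2 of the normalized signal (y axis) of the control and coculture pool of each array, joined by a line, for the 8 probes at an unadjusted p under 0.05. Lines run the same way on all 4 arrays for KAT2B, PRMT7 and SMARCB1, and those of SIRT1 and SMARCE1 run upward on replicates 3 and 4 and slightly downward on the others.

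The CHD remodellers had 11 tested probes of 7 genes, 4 above and 7 below 0 with a median of -0.017 and none at an unadjusted p under 0.05. CHD4, the ATPase of the NuRD complex, gave 6454, 7246, 7865 and 6303 in coculture and 6594, 7975, 8192 and 5548 in control. The pools of each array differed little, and the ratio of -0.01 had a 95% interval from -0.34 to 0.32. CHD1, a remodeller of transcribed genes needed in mouse embryonic stem cells for open chromatin, stood at 0.09 (-0.24 to 0.41) and 0.11 (-0.24 to 0.46). CHD8, which binds beta-catenin, stood at -0.15 (-0.48 to 0.18) by its brightest probe and at -0.056 and -0.091 by the others. CHD5 stood at -0.25 (-0.66 to 0.17), with -0.82 on replicate 1 and values between -0.18 and 0.066 elsewhere.

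Of the 45 genes, 20 had over 1 tested probe, with a median distance of 0.212 between their lowest and highest ratio. For 8 of the 20 the probes lay on both sides of 0: CHD2, HDAC10, KDM1A, KDM5C, SIRT2, SIRT3, SMARCA5 and SMARCB1, of which CHD2, KDM5C, SIRT3 and SMARCA5 are named after their values were seen. In none of the 20 were the 95% intervals of the lowest and highest probe apart. Of the 8 probes at an unadjusted p under 0.05, 5 were the brightest tested probe of their gene (KAT5, PRMT7, SIRT1, SMARCE1 and TET2), 3 were above the limit in every channel (KAT5, PRMT7 and SIRT1), and 3 kept 1 sign on all 4 arrays (KAT2B, PRMT7 and SMARCB1). Among all probes tested, 1228 had such a p, and 722 of these kept 1 sign. Above the limit in every channel were 45.9% of all probes tested and 44.2% of the members tested. Probes of 1 gene share its transcripts and are not replicates. Which exon or isoform a probe matches, and whether it also binds the transcript of a related gene, was not tested.

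**Figure D5:**
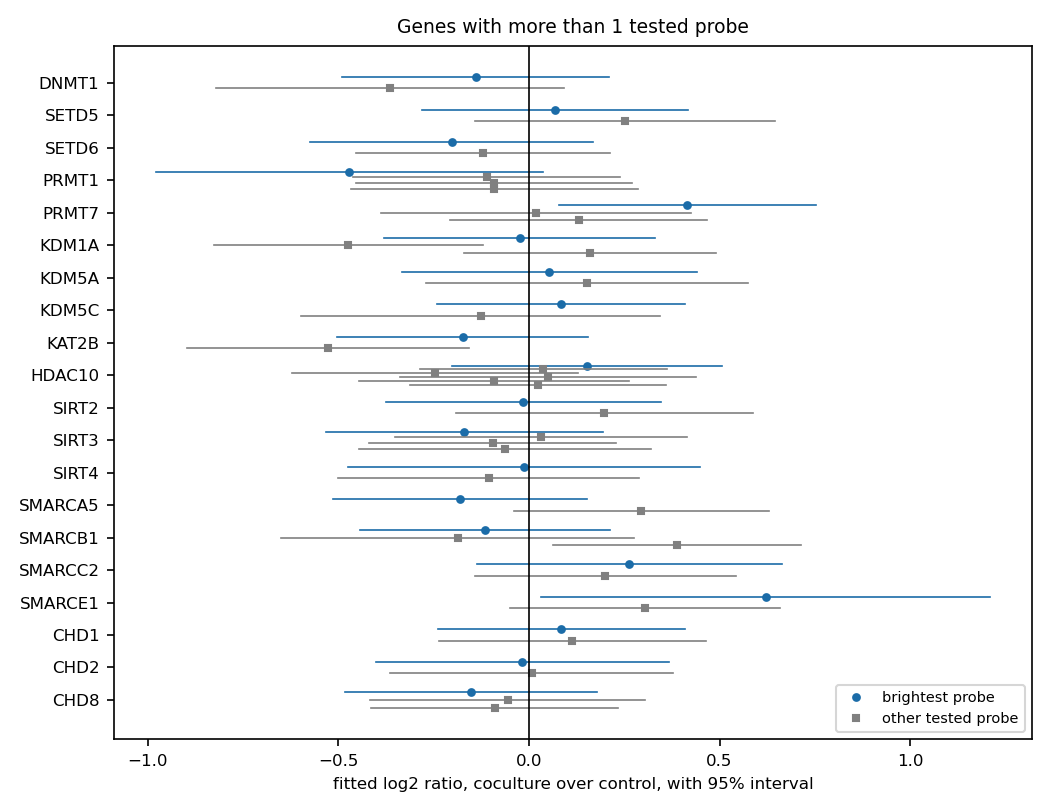
Fitted log2 ratio of coculture over control with its 95% interval (x axis) for each tested probe of the 20 genes with more than 1, the brightest probe in blue and the others in grey. The probes of KDM1A and SMARCB1 spread widest, from -0.47 to 0.16 and from -0.19 to 0.39, and their intervals overlap.

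Other chromatin genes were listed by name as partners of these enzymes. Of 180 listed genes, 121 had a probe and 69 were tested, 30 above and 39 below 0 by the brightest tested probe, with a median of -0.060 beside -0.0061 for all named genes tested. None passed in limma, and 5 had an unadjusted p under 0.05 (7.25% of the 69), all lower in coculture. Over all 5368 named genes tested, taken by their brightest tested probe, 8.46% had such a p, and 4.71% had it and were lower. The partners' 7.25% lay below the share for both directions and above the share for lower alone. That difference was not tested. GADD45G, linked to active DNA demethylation, stood at -0.47 (95% interval -0.84 to -0.10). It averaged -0.026 with coculture in Cy5 and -0.91 with coculture in Cy3. Such a split is not part of an interval here. NCOR1, the corepressor that carries HDAC3, stood at -0.45 (-0.86 to -0.04), and RSF1, partner of the remodeller SMARCA5, at -0.43 (-0.80 to -0.06). NCOR1 averaged -0.46 with coculture in Cy5 and -0.44 in Cy3, and RSF1 averaged -0.025 and -0.84. DOT1L, which methylates the core of histone H3, stood at -0.43 (-0.85 to -0.01). TADA2A, an adaptor of KAT2B complexes named after its value was seen, stood at -0.39 (-0.76 to -0.01). In the same order of dyes DOT1L averaged -0.41 and -0.45, and TADA2A -0.27 and -0.51. RSF1 was above the limit on 1 coculture and 3 control arrays, and TADA2A on 1 coculture and 2 control arrays. Both were tested only through control, where they were the higher, so their p-values and intervals are not support for a difference.

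Among partners above 0, the 1 of smallest p in each list is given. RBBP7, a histone-binding subunit of the Polycomb and NuRD complexes, was above 0 on all 4 arrays, at 0.27, 0.094, 0.34 and 0.54, with a fitted ratio of 0.31 (95% interval -0.02 to 0.64). UHRF2, a relative of the DNMT1 partner UHRF1, stood at 0.27 (-0.71 to 1.25) with 2.18 on replicate 3 alone, CBX3, a heterochromatin protein, at 0.26 (-0.16 to 0.67), BAZ1B at 0.22 (-0.13 to 0.57) and BRD8 at 0.21 (-0.18 to 0.60). CBX8, a reader of the Polycomb mark, stood at -0.23 (-0.56 to 0.09). It was above the limit on 1 coculture and 2 control arrays, and BAZ1B on 2 coculture arrays and 1 control array. Each was thus tested only through the condition where it was the higher. By list, the medians were -0.078 over 7 genes of DNA methylation partners, 0.052 over 16 of histone methylation, -0.086 over 7 of Polycomb repressive complex 1 and chromobox readers, -0.11 over 24 of acetylation and corepression, with 17 of 24 below 0, and 0.021 over 15 remodelling subunits.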

How the data were processed

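The authors deposited, per array, scanner tables with the raw pixel intensity and local background intensity of each spot and dye, on a linear scale, and a table of log2 ratios (Cy5 over Cy3, not turned for the dye exchange). Per the labels' protocols, RNA was amplified and labelled chemically. The submitters' processing notes name limma, without a version or settings. The deposited log2 table correlated at 0.941 to 0.961 with subtracted, loess-normalized scanner ratios; column medians were -0.0133, -0.013, -0.000395 and -0.0167, and its centring is unknown.

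Median intensities were corrected with normexp (offset 50) and normalized by loess in limma 3.58.1 under R 4.3.3, where control spots had no weight. Between 74 and 150 spots per array, which the quantification had ignored, had no value. Ratios were fitted with lmFit and eBayes (6.03 prior degrees of freedom added to 2), with a dye intercept and a coculture term, and adjusted by Benjamini-Hochberg over 15631 probes. On data simulated for these 15631 probes with independent normal noise, 50 probes each were changed by 1, 2, 3 and 4 on the log2 scale. Of the 50 changed by 1, 98% were called. The larger changes loosen the adjusted cut-off, so that share does not carry over to the real arrays, where no probe passed. Normalized signals are linear channel values after loess and Aquantile. A bound sets the mean log2 signal of the brighter condition against the dimmer one, raised per array to the lowest signal of a detected probe where it was below it. All 71 symbols are current in RefSeq (Sscrofa11.1), used for names only.

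Genes named were those with a probe at an unadjusted p under 0.05, the 2 of smallest p per class, a fixed set of enzymes, those whose tested probes differ in sign with 1 at an unadjusted p under 0.05, and per partner list the gene of smallest p on each side of 0. Members and lists were chosen with earlier results of these data known. Precision is limited by the 4 arrays. Probe sequences were not analysed here.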

Additional observations from a re-analysis of the deposited data

Results flagged for a closer look

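In PRMT1, by its brightest probe, 1 array stood apart from the other 3: the log2 ratio of coculture over control was 0.479 on replicate 1, against values between -0.88 and -0.72 elsewhere. It was the 1 of 26 named enzyme genes examined for such an array, and chance alone marks about 1 in 20 sets of values.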

How the results depend on the processing

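No probe passed at an adjusted p under 0.05 in limma under any alternative run (13 fits with the main one), where between 608 and 2634 probes had an unadjusted p under 0.05, against 1228 in the main fit. That count was 2634 with no filter on dim probes, 641 over probes detected in every channel and 815 with no dye term, and leaving out 1 array gave 608 to 1512. The 8 members below that p became 3 with median centring, 3 over probes detected in every channel, 1 with mean pixel intensities and 5 with no dye term, and leaving out 1 array gave 2 to 10. Their median ratio of -0.011 became 0.0070 with no background correction, -0.074 with median centring, which moved all probes by a median of -0.067, 0.011 with no filter and 0.018 with mean pixel intensities, and leaving out 1 array gave -0.012 to 0.017. Raising the detection limit to 3 SD put the mean detected share of members in coculture at 31.3%. Without background correction KDM1A turned to 0.0078 and SIRT2 to 0.0013. With mean pixel intensities DNMT1 turned to 0.052, SIRT2 to 0.058, CHD5 to 0.0049, KDM6A to -0.023, CHD1 to -0.057, CHD4 to 0.0016 and the dimmest SMARCB1 probe to -0.016. Median centring turned SETD5 to -0.0060 and KDM6A to -0.047, and the authors' deposited table gave SETD5 -0.050 and SIRT2 0.0066. Averaging tested probes gave SMARCB1 0.029, HDAC10 -0.012 and SIRT2 0.091. Leaving out 1 array crossed 0 for KDM1A (-0.15 to 0.097), TET1 (-0.014 to 0.33), SETD5 (-0.020 to 0.16), SIRT2 (-0.15 to 0.11), KDM6A (-0.086 to 0.14), HDAC1 (-0.096 to 0.042), SMARCA4 (-0.19 to 0.58) and CHD4 (-0.072 to 0.050). The cause was not tested. Each ratio is taken within an array, so every fit compares coculture and control as pairs.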
